A study of Homo sapiens with 8 samples.

Results

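The features described here were the tRNA entries for glycine, glutamate, aspartate, histidine and valine, taken by name: every counted entry whose name holds trna and whose amino acid, written after the last hyphen, is one of these. They made up 60 of the 1226 features counted in the series and 60 of its 274 tRNA entries. Glycine had 15 entries, glutamate 14, aspartate 8, histidine 3 and valine 20, and together they carried 10 anticodons. The rule uses names and no measured value. An entry such as chr12.trna10-AspGTC gives the chromosome of a tRNA gene copy, its number on that chromosome, the amino acid and the anticodon, and an anticodon sum below is the total over all entries with that anticodon.

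A tRNA carries an amino acid to the ribosome and reads the matching codon with its anticodon, the 3 bases in the middle of the molecule. Mature tRNAs can be cut into shorter pieces, among them 5′ and 3′ pieces made by cleavage in the anticodon loop under cell stress and shorter fragments from either end. Pieces of the glycine, glutamate, aspartate, histidine and valine tRNAs are among those most often met in small RNA libraries, and most of these tRNAs are encoded by many near-identical gene copies. Only reads of 17 to 35 bases were kept in this study, so a read counted on a tRNA entry covered only part of the mature molecule. Reads had been trimmed at the 3′ end, so their length alone does not give the length of the RNA sequenced.

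The libraries were made from H1299, a non-small cell lung carcinoma line derived from a lymph node that lacks p53. The control line had been infected with an empty vector in another laboratory (H1299/EV), and the second line had been transfected with a plasmid that drives the mutant p53R273H from the CMV promoter and was grown from G418-resistant colonies (H1299/mutant p53R273H), so the lines differed in how they were made as well as in p53. Cells of each line were left untreated or were given etoposide, an inhibitor of topoisomerase II that breaks DNA, for 24 h at a dose that the labels give as 10 µM in one place and as 10 mM in another. Each of the 4 groups had 2 libraries, 8 in all, and an exact permutation test of 2 libraries against 2 cannot give a p below 0.33, so tests were taken from models fitted across all features. Where groups are said below not to overlap, the share of all features separated in that way was not counted. Such separation is therefore description only.

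After leaving out adapter entries, the libraries held 234542 to 579337 counted reads. The share of these on any tRNA entry ran from 1.72% to 8.78%, with a median of 4.43%, and miRNAs took 90.8% to 98.2%. Replicate libraries differed by far more than sampling noise (chi-square per degree of freedom of 28.0 to 57.0 over all features), so each was counted as a separate library. As a check of the cell type, miR-21-5p, abundant in carcinoma cells, took 290991 to 430357 RPM (reads scaled to a common library total), and the markers of blood, liver and muscle listed in the tables reached at most 18 reads in any library. In such bulk samples, fewer cells giving rise to an RNA and less of it per cell cannot be told apart.

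The tRNAs whose values carry the comparisons are shown first, because reads of 17 to 35 bases can be placed on one tRNA only as far as its sequence differs from the others. The sequences were read from the human genome (GRCh37) at copies found by their cloverleaf stems and anticodon, without the CCA tail that is added after transcription. Capitals mark the anticodon, and the form shown is the one found at most copies of its anticodon unless a type or an entry is named.
AspGTC: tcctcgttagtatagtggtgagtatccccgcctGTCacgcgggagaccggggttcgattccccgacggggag
GlyGCC type 1: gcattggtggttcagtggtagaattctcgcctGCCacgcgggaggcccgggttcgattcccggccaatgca
GlyCCC type 1: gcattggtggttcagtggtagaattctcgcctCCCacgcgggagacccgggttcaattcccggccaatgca
GluTTC type 1: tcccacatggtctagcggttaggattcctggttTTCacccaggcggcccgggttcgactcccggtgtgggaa
GluTTC type 2: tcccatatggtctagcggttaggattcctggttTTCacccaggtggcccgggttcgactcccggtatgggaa
ValAAC: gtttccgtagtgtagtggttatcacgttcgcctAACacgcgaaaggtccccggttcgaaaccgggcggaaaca
ValCAC type 1: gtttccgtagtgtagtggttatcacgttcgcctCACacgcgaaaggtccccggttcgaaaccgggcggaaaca
ValTAC: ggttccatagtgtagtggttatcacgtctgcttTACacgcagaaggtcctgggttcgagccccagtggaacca
chr10.trna6-ValTAC: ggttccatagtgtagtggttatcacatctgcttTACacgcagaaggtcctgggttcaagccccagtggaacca

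With positions counted from 1 at the 5′ end, GlyGCC type 1 and GlyCCC type 1 share their first 32 bases and differ only by G33C, G45A and G55A. ValAAC and ValCAC type 1 differ by the single substitution A34C, with 33 shared bases before it and 39 after it. GluTTC types 1 and 2 differ by C6T, C44T and G66A. A read from the 5′ end that stops short of the anticodon is therefore the same sequence for these forms of GlyGCC and GlyCCC, and likewise for these forms of ValAAC and ValCAC. It is not so for other forms: GlyGCC type 2, found at 5 of 11 loci, differs from type 1 by T5G and A66C and shares only its first 4 bases with GlyCCC type 1. Further in, GlyGCC type 2 and GlyCCC type 1 share a run of 27 bases. A read that lies within this run is the same sequence for both. Of the 5 candidate copies of chr1.trna33-GlyGCC, the entry with most GlyGCC reads, 4 are of type 2. GlyCCC type 1 was found at 2 of 8 loci. The entry with most GlyCCC reads, chr1.trna124-GlyCCC, has 5 candidate copies with 4 distinct sequences, so its form is not known. How reads that match several copies were shared among the entries was not given in the sources used here, and the position of a read within its tRNA is not in the tables, so the split between such pairs is uncertain.

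Chromosome and anticodon together pointed to a single locus for 7 of the 60 entries. The entry chr10.trna6-ValTAC lies at chr10:5895674-5895746 on the minus strand, where the annotation (GENCODE, on GRCh37) has no other gene, and it differs from the ValTAC form above by G26A and G57A. The entry chr19.trna13-ValCAC lies at chr19:4724647-4724719 on the minus strand and overlaps an exon of a transcript of DPP9 on the same strand. The ValTAC copies of chromosome 11 lie at chr11:59318102-59318174 and chr11:59318460-59318532, both on the minus strand, and differ by T16C, but names alone do not say which of them is chr11.trna16 and which is chr11.trna17. The GluTTC copies of chromosome 13, one of type 2 at chr13:41634874-41634945 in an intron of ELF1 and one of type 1 at chr13:45492062-45492133 outside any annotated gene, likewise could not be matched to chr13.trna3 and chr13.trna5. For the most abundant entry, chr12.trna10-AspGTC, chromosome 12 holds 4 candidate copies with 2 distinct sequences.

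The 60 entries took 73.9% to 87.6% of all tRNA reads, so these amino acids supplied most of the tRNA signal in every library. AspGTC alone, the sole aspartate anticodon found, took 32.8% to 54.9% of tRNA reads. Glycine followed with 10.0% to 26.2%, valine with 6.28% to 24.0% and glutamate with 3.58% to 6.75%. HisGTG was scarce, at 0.0743% to 0.592%. The tRNA sequences shown, without the CCA tail, are nearly equal in length, 71 to 73 bases. Each read stands for one sequenced molecule, so the shares were compared without a length correction.

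Within these amino acids the reads lay on few entries. The 8 libraries held 134523 reads on the 60 entries, of which chr12.trna10-AspGTC took 51.9% and the 5 leading entries 79.2%. An entry each led AspGTC (chr12.trna10, 92.6% of the anticodon's reads), GluCTC (chr1.trna54, 97.1%), GlyCCC (chr1.trna124, 96.7%) and GlyGCC (chr1.trna33, 92.3%). The reads were more evenly divided for GlyTCC, whose leading entry chr1.trna110 held 49.0%, and for ValTAC, whose entry chr11.trna17 held 55.1%. Leading entries of the other anticodons held 60.2% of ValCAC (chr19.trna13), 61.5% of ValAAC (chr6.trna136), 64.8% of GluTTC (chr13.trna3) and 75.7% of HisGTG (chr1.trna104). At the other end, 14 entries had fewer than 10 reads over all libraries, and 35 had a read in every library. Between 6 and 20 entries had no read in a given library, where a count of 0 allows up to 3 reads by counting error alone.

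The make-up of the tRNA reads separated the lines. Valine took 9.97% and 9.33% of tRNA reads in the untreated H1299/EV libraries and 8.74% and 6.28% in the etoposide ones, against 24.0% and 19.2% in untreated and 22.3% and 20.3% in etoposide-treated H1299/mutant p53R273H libraries. No library of one line reached the range of the other. These are shares of the tRNA reads only. In the level of summed valine reads, given below, the lines overlapped both untreated and under etoposide. Most of the difference in valine share lay in ValTAC, which took 3.01% to 4.998% of tRNA reads over the 4 H1299/EV libraries and 12.6% to 14.8% over the 4 H1299/mutant p53R273H libraries.

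Glycine ran the other way. GlyCCC took 9.99% to 17.04% of tRNA reads in H1299/EV and 6.10% to 8.45% in H1299/mutant p53R273H, and GlyGCC took 4.95% to 6.75% against 2.27% to 4.12%, again with no overlap of the lines. GlyTCC shares overlapped (1.23% to 2.45% and 1.65% to 3.64%), as did AspGTC shares (32.8% to 54.9% and 34.5% to 51.4%). These shares do not depend on how libraries are scaled to each other. For ValTAC, Wilson 95% intervals for counting error alone were narrow beside the gap between the lines. They were 13.5% to 14.3% in the first etoposide-treated H1299/mutant p53R273H library and 3.64% to 4.01% in the first untreated H1299/EV library. For GlyGCC the intervals were not narrow beside the gap. They were 3.71% to 4.58% in the first untreated H1299/mutant p53R273H library and 4.73% to 5.19% in the second etoposide-treated H1299/EV library. The shares are given as a description of the libraries, without a test.

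**Figure D1:**
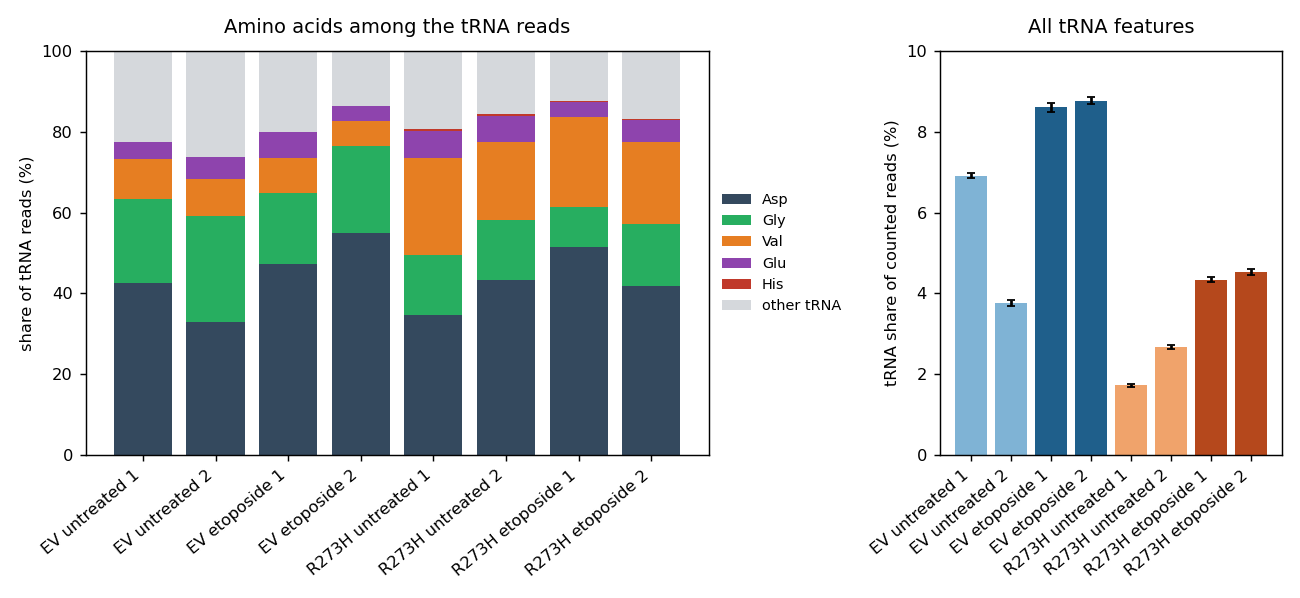
Left, share of all tRNA reads (percent) on each of the 5 amino acids and on all other tRNAs, as stacked bars for the 8 libraries; right, share of counted reads (percent) on any tRNA entry, with Wilson 95% intervals for counting error as error bars. Valine stays between 6.28% and 9.97% in the EV libraries and between 19.2% and 24.0% in the R273H libraries, and the tRNA share of each line is higher in both etoposide libraries than in both untreated ones.

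The ratio of ValTAC to GlyGCC reads within a library, a pair set side by side after their shares had been seen, put the same contrast in one number. It was 0.612 and 0.741 in untreated and 0.653 and 0.608 in etoposide-treated H1299/EV cells. In H1299/mutant p53R273H cells it was 3.60 and 3.08 untreated and 6.13 and 3.62 with etoposide. By contrast, the ratio of GlyCCC to GlyGCC ran from 1.79 to 3.10 in H1299/EV and from 2.02 to 2.69 in H1299/mutant p53R273H, and the ratio of ValAAC to ValCAC from 4.04 to 5.12 and from 4.35 to 7.43. In both of these ratios of anticodon sums the lines overlapped.

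The first comparison asked how untreated cells with p53R273H differed from untreated p53-null cells. Glycine and aspartate tRNA reads were lower in H1299/mutant p53R273H. Among anticodon sums, GlyCCC, GlyGCC, AspGTC and GlyTCC fell and none rose past the test, 4 of 10. Of all 352 rows tested at that level 21.9% were called, with 12.5% called lower and 9.38% higher. Among the 35 tested sums of other tRNA anticodons, 8 were called lower and 0 higher. The values below are the deposited normalized counts, that is, reads divided by a size factor for each library, and a change was called at an adjusted p under 0.05 (limma on log2 of the normalized count plus 1, Benjamini-Hochberg adjustment over all rows).

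GlyCCC, which reads a GGG codon, had normalized counts of 3507 and 2652 in H1299/EV and 677 and 841 in H1299/mutant p53R273H. Both mutant libraries lay far below both controls, a log2 fold change of -2.01 ± 0.31 (SE; limma adjusted p = 6.44e-05). GlyGCC, which reads GGC and GGU, had 1734 and 1050.3 against 336 and 408, a log2 fold change of -1.86 ± 0.34 (limma adjusted p = 0.000345). The groups again did not overlap. The glycine anticodon GlyTCC had 476 and 381 against 206 and 233, a log2 fold change of -0.95 ± 0.34 that passed narrowly (limma adjusted p = 0.0486).

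AspGTC, the most abundant sum, had normalized counts of 11844 and 5109.6 in H1299/EV and 2812 and 4318 in H1299/mutant p53R273H. The groups did not overlap, but the control libraries differed from each other by more than the second control differed from the second mutant library. The log2 fold change was -1.16 ± 0.34 (limma adjusted p = 0.0154). It was -0.55 without the first H1299/EV library, which ended the call (limma adjusted p = 0.268), and -1.76 without the second. Summed by amino acid, glycine was lower by -1.85 ± 0.30 and aspartate by the same -1.16 as its single anticodon (limma adjusted p = 0.000516 and 0.0291). These were 2 of 5 amino acids, with 21.3% of all rows called at that level. Among 16 such sums of the other tRNA entries, 7 were called lower and 0 higher. The valine sum overlapped between the lines, at 2766 and 1452 in H1299/EV and 1952 and 1914 in H1299/mutant p53R273H (-0.05 ± 0.33, limma adjusted p = 0.924).

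The glutamate anticodons were lower without passing the test. GluTTC had normalized counts of 368 and 293 against 170.3 and 184, with a log2 fold change of -0.89 ± 0.35, and GluCTC had 784 and 537 against 379.7 and 454, with a log2 fold change of -0.64 ± 0.34 (limma adjusted p = 0.0719 and 0.182). Neither sum overlapped between the lines. ValCAC, at 284 and 134 against 88.2 and 108, did not overlap either (-0.99 ± 0.40, limma adjusted p = 0.0800), whereas ValAAC overlapped, at 1421 and 540.3 against 656 and 548 (-0.55 ± 0.37, limma adjusted p = 0.300).

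ValTAC and HisGTG were the sums that stood higher in the mutant line. ValTAC had normalized counts of 1061 and 778 against 1208 and 1257 (0.44 ± 0.31, limma adjusted p = 0.321). HisGTG, the only histidine anticodon found, had 23.5 and 23.9 against 48.2 and 39.1 (0.85 ± 0.44, limma adjusted p = 0.181). Both sums were separated without overlap but did not pass the test. For 2 libraries against 2, separation alone reaches no p below 0.33 in an exact permutation test.

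**Figure D2:**
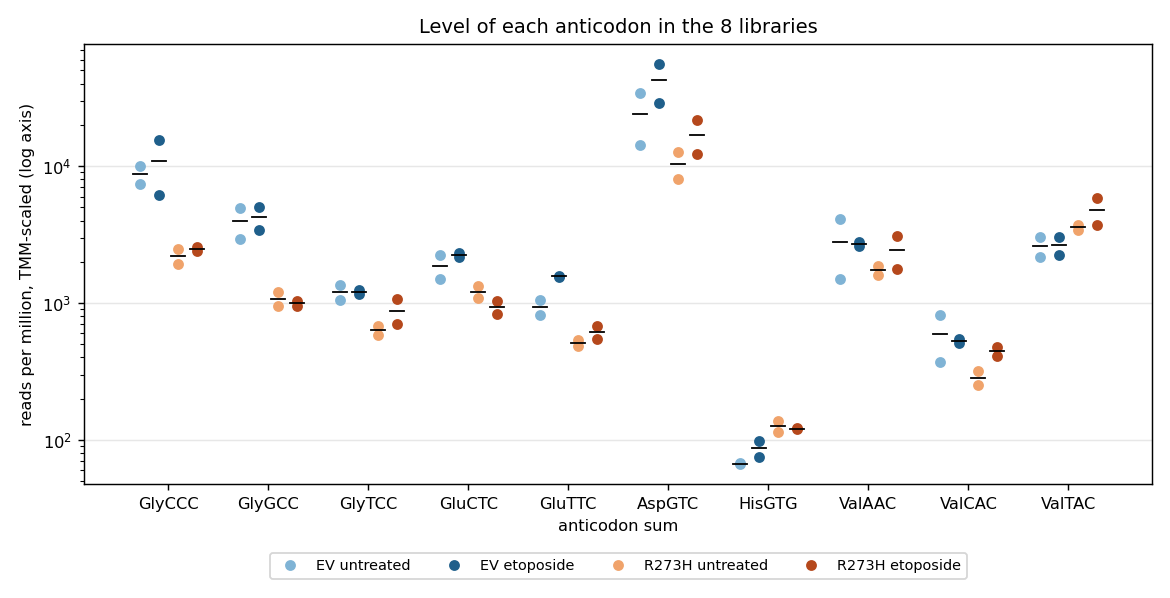
Level of the 10 anticodon sums in the 8 libraries, in RPM after TMM scaling over all libraries (log axis); points are libraries and black bars the means of the 2 libraries of a group. GlyCCC and GlyGCC lie lower in all 4 R273H libraries than in all 4 EV libraries, and ValTAC lies higher.

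At the level of single entries, 35 of the 60 averaged 3 or more normalized counts in the 4 untreated libraries and were tested. Of these, 6 fell, 1 rose and 28 did not pass, beside 20.0% of all 415 features called (12.3% lower and 7.71% higher). The median log2 fold change was -0.52 over the entries tested, -0.62 over 73 tested tRNA entries of other amino acids, of which 16 fell and 2 rose, and -0.04 over all features. Tested entries of other tRNAs thus also had a median below 0.

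The leading entries of the fallen sums were themselves lower. chr1.trna124-GlyCCC had normalized counts of 3414 and 2599 in H1299/EV and 631 and 798 in H1299/mutant p53R273H (-2.07 ± 0.31, limma adjusted p = 6.90e-05). chr1.trna33-GlyGCC had 1664 and 1006 against 265 and 337 (-2.11 ± 0.35, limma adjusted p = 0.000210). chr12.trna10-AspGTC had 10973 and 4679 against 2531 and 3759.6 (-1.22 ± 0.34, limma adjusted p = 0.0142), and its log2 fold change was -0.60 without the first H1299/EV library and -1.83 without the second. These 3 entries hold most reads of their anticodons, so they repeat the sums and add no separate evidence.

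The other entries that fell also led their anticodons, each with a smaller share of the reads. chr13.trna3-GluTTC fell from 264 and 231 to 86.2 and 89.8 (-1.48 ± 0.38, limma adjusted p = 0.00826), although the GluTTC sum did not pass. chr1.trna110-GlyTCC fell from 284 and 174 to 78.0 and 97.8 (-1.34 ± 0.40, limma adjusted p = 0.0188). chr19.trna13-ValCAC, the uniquely placed copy in DPP9, fell from 189 and 87.7 to 43.1 and 57.8 (-1.35 ± 0.44, limma adjusted p = 0.0318).

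The single entry that rose was chr6.trna115-ValAAC, a minor copy that held few of the ValAAC reads. It had normalized counts of 11.1 and 4.78 in H1299/EV and 73.9 and 22.2 in H1299/mutant p53R273H, from 16 and 3 reads against 72 and 25. The groups did not overlap, although the mutant libraries differed widely from each other, and the log2 fold change was 2.32 ± 0.57 (limma adjusted p = 0.00613). Without the first mutant library it was 1.47 and without the second 3.16 (limma adjusted p = 0.353 and 0.131).

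**Figure D3:**
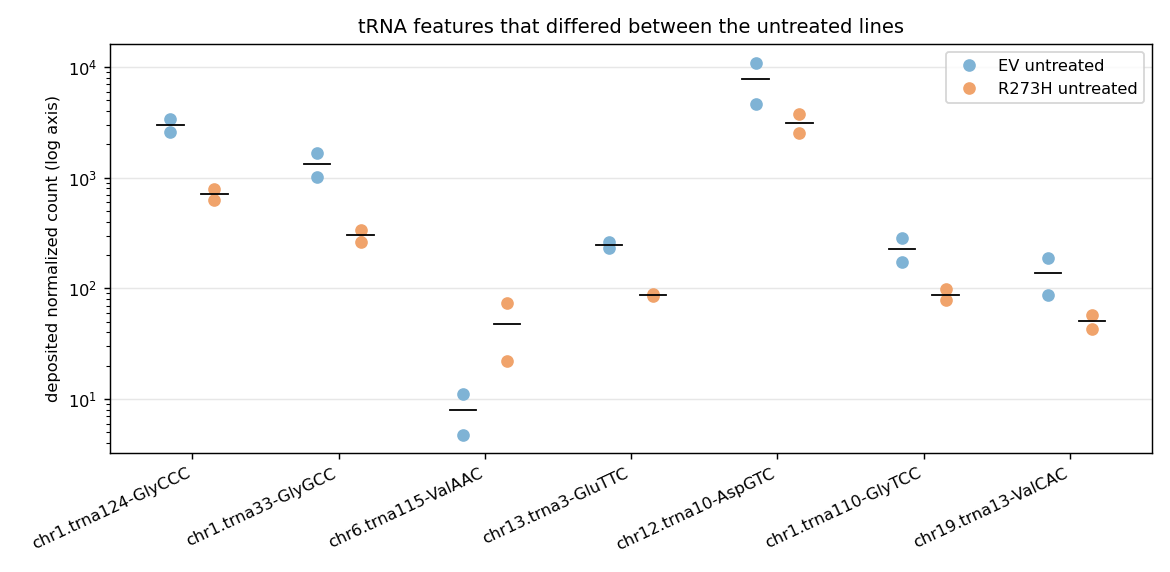
Deposited normalized counts (log axis) of the 7 entries with an adjusted p under 0.05 between the untreated lines; points are libraries and black bars the means of the 2 libraries. The 6 lower entries and the higher one, chr6.trna115-ValAAC, are separated without overlap.

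With any 1 of the 4 untreated libraries left out, no entry passed (limma, adjusted p under 0.05; between 3 and 11 entries had an unadjusted p under 0.05), and the number of anticodon sums called was 2 without the first H1299/EV library, 6 without the second and 0 without either mutant library. The tRNA reads as a whole made up 6.92% and 3.75% of counted reads in untreated H1299/EV and 1.72% and 2.67% in untreated H1299/mutant p53R273H, and the part of this shift in the calls was not tested. When libraries were set to equal tRNA totals instead, which moved the median log2 fold change of all features from -0.04 to 1.07, 6 entries were called and all 6 were higher, but so were 126 of the 140 features called on that scale (33.7% of all features tested). chr6.trna115-ValAAC was the sole entry called on both scales. On that scale the sums of GlyCCC (-0.81) and GlyGCC (-0.66) stayed below 0 without passing, AspGTC (0.05) and GlyTCC (0.25) turned positive without passing, and ValTAC (1.65 ± 0.61) and HisGTG (2.01 ± 0.72) passed as higher (limma adjusted p = 0.0299 and 0.0250).

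The same contrast of lines was next made under etoposide, with the recovered reads of all 8 libraries in one model (edgeR quasi-likelihood test, Benjamini-Hochberg adjustment). Glycine, glutamate and aspartate reads were lower in etoposide-treated H1299/mutant p53R273H than in etoposide-treated H1299/EV cells. Of the 10 anticodon sums, 5 fell and none rose past the test, with 20.6% of all 383 rows called, 11.2% lower and 9.40% higher. Among the 36 tested sums of other tRNA anticodons, 9 were called lower and 0 higher. Levels are given as RPM after TMM scaling. Both contrasts of lines compare separate libraries, but they share the 2 cell lines. The untreated libraries also entered the spread, the scaling and the row filter of this model, so the contrasts are not independent.

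GlyGCC stood at 3436 and 5038 RPM in etoposide-treated H1299/EV and 954 and 1035 in etoposide-treated H1299/mutant p53R273H, a log2 fold change of -2.09 ± 0.37 (edgeR adjusted p = 1.22e-05). GlyCCC stood at 6139 and 15604 against 2567 and 2391, or -2.13 ± 0.39 (edgeR adjusted p = 3.29e-05). For both sums the mutant libraries were close together and lay below both controls. In the GlyCCC sum the control libraries themselves spread widely, and without the second of them its log2 fold change was -1.31 (edgeR adjusted p = 0.0182).

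The glutamate sums, which had not passed in untreated cells, passed here. The tests were unlike, limma on the untreated libraries there and edgeR on all 8 libraries here. A different outcome is therefore no evidence that the contrast differed between treatments. The interaction of line and etoposide passed for neither GluTTC nor GluCTC (edgeR unadjusted p = 0.313 and 0.199). GluTTC stood at 1552 and 1587 RPM against 680.2 and 545 (-1.36 ± 0.34, edgeR adjusted p = 0.00213), and GluCTC at 2322 and 2151 against 826 and 1035 (-1.26 ± 0.35, edgeR adjusted p = 0.00544). AspGTC stood at 29088 and 55782 against 21649 and 12175 (-1.33 ± 0.43, edgeR adjusted p = 0.0199), a call that ended without the second H1299/EV library (-0.78, edgeR adjusted p = 0.229) or the second mutant library (-0.97, edgeR adjusted p = 0.251). All of these groups were separated without overlap. Summed by amino acid, glycine (-1.96), glutamate (-1.35) and aspartate (-1.39) were called, 3 of 5, with 21.8% of rows called at that level. Among 16 such sums of the other tRNA entries, 6 were called lower and 0 higher. Glycine was -1.33 without the second etoposide-treated H1299/EV library.

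Among the sums not called, ValTAC stood at 2243 and 3061 RPM in H1299/EV and 5853 and 3741.5 in H1299/mutant p53R273H (0.85 ± 0.36, edgeR adjusted p = 0.0782). HisGTG stood at 97.4 and 75.6 against 123 and 119 (0.48, edgeR adjusted p = 0.427). GlyTCC, called in the untreated comparison, had a log2 fold change of -0.46 here (edgeR adjusted p = 0.350), and whether the contrast of lines differed between treatments was tested separately below. ValAAC (-0.15) and ValCAC (-0.26) lay closest to 0. Summed over all its entries, valine stood at 5358 and 6546 RPM in H1299/EV and 8952 and 5927 in H1299/mutant p53R273H, with overlap (0.32 ± 0.37, edgeR adjusted p = 0.580).

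**Figure D4:**
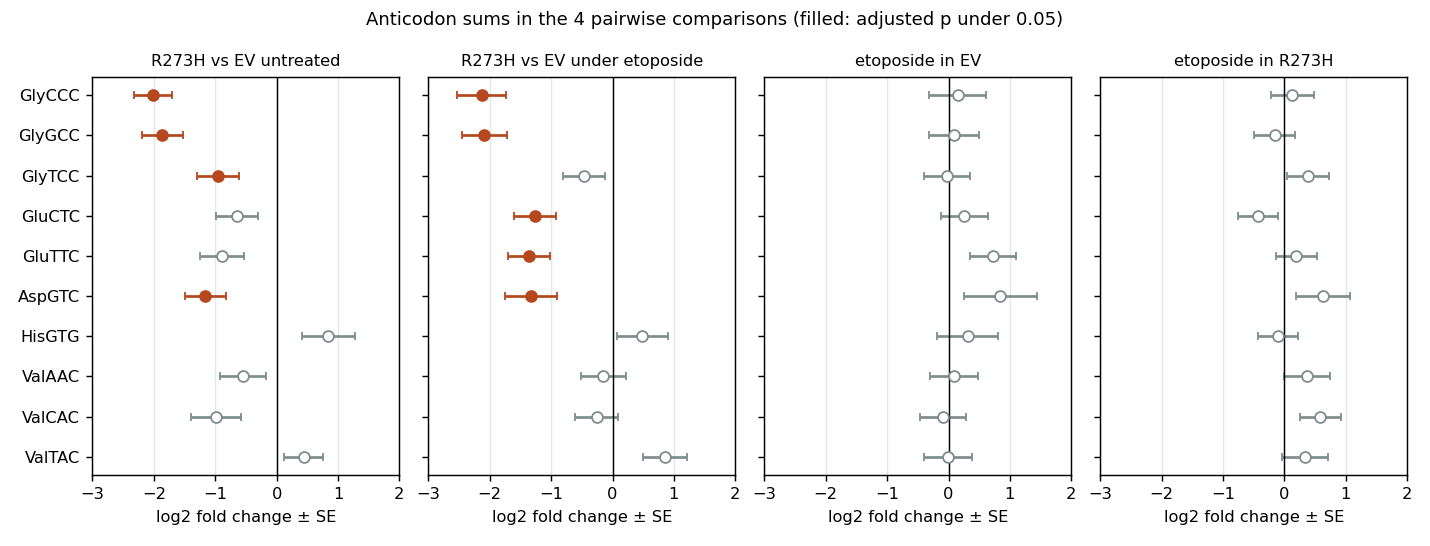
Log2 fold change with its standard error for the 10 anticodon sums in the 4 pairwise comparisons; filled points have an adjusted p under 0.05 (limma, and edgeR for the panel under etoposide). The filled points are the 4 sums lower in untreated and the 5 lower in etoposide-treated R273H cells, and no sum is filled in either etoposide panel.

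Of the 38 entries with a mean of at least 3 reads over the 8 libraries, 8 fell, 2 rose and 28 did not pass under etoposide, beside 19.1% of all 451 features called (11.3% lower and 7.76% higher). The median log2 fold change was -0.40 over these entries, -0.37 over 76 tested entries of other tRNAs and 0.04 over all features. Among those that fell were leading entries whose sums fell too: chr1.trna33-GlyGCC (-2.32 ± 0.40), chr1.trna124-GlyCCC (-2.23), chr1.trna54-GluCTC (-1.31 ± 0.37) and chr12.trna10-AspGTC (-1.39 ± 0.48), with edgeR adjusted p from 3.52e-05 to 0.0369. The leading GluTTC entry, chr13.trna3, also fell with its sum and is given below. Without the second etoposide-treated H1299/EV library, chr1.trna124-GlyCCC was at -1.29 and chr12.trna10-AspGTC at -0.76, the latter no longer called (edgeR adjusted p = 0.281).

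The 4 ValTAC entries differed in direction. chr11.trna17-ValTAC stood at 1036 and 837 RPM in etoposide-treated H1299/EV and 3772 and 2387 in etoposide-treated H1299/mutant p53R273H, a log2 fold change of 1.72 ± 0.39 (edgeR adjusted p = 0.00178). In untreated cells the same entry stood at 1412 and 826 against 2308 and 1645, with a log2 fold change of 0.81 ± 0.37 on the deposited scale (limma adjusted p = 0.133). chr11.trna16-ValTAC, from the same chromosome, stood at 172 and 131 RPM against 341 and 248 under etoposide, without overlap (0.95 ± 0.37, edgeR adjusted p = 0.0643). The uniquely placed chr10.trna6-ValTAC, of nearly the same sequence, overlapped between the lines under etoposide, at 876 and 2134 against 1599 and 985. The scarce chr6.trna40-ValTAC was lower, with 11 and 15 reads against 4 and 1 (-3.04 ± 0.76, edgeR adjusted p = 0.00430). It was -4.28 without the first mutant library and -2.34, no longer called, without the second (edgeR adjusted p = 0.113).

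In reads, chr11.trna17 was 1.11, 0.627, 1.18 and 0.392 times chr10.trna6 in the H1299/EV libraries, in the order untreated and then etoposide, and 2.17, 0.856, 2.36 and 2.42 times in the H1299/mutant p53R273H libraries. The lines overlapped in this ratio because of the second untreated mutant library. Reads matching both copies could be split between the entries, so the contrast between them is uncertain.

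Of the GluTTC entries, 3 were lower under etoposide: chr13.trna3-GluTTC at -1.53 on the log2 scale, chr1.trna88-GluTTC at -1.17 and chr13.trna5-GluTTC at -1.39 (edgeR adjusted p = 0.00194, 0.0392 and 0.0424). The last rested on the second etoposide-treated H1299/EV library, which had 120 reads of chr13.trna5 where the first had 23. Without it the log2 fold change was 0.29. As in untreated cells, chr6.trna115-ValAAC was higher, at 28.7 and 23.9 RPM against 82.2 and 69.7 (1.52 ± 0.55, edgeR adjusted p = 0.0442).

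In the scarcest anticodon, replicate values lay close together but came from few reads. chr1.trna104-HisGTG stood at 47.2 and 48.6 RPM in untreated and 63.2 and 62.8 in etoposide-treated H1299/EV cells, and at 98.5 and 98.8 in untreated and 89.4 and 91.8 in etoposide-treated H1299/mutant p53R273H cells. In the same order, these came from 25 and 10, 22 and 21, 33 and 37, and 50 and 54 reads. Counting error at such depth is wider than the gaps between replicates. All libraries of the mutant line lay above all those of the control line, although the entry passed in neither comparison of lines (limma adjusted p = 0.148 in untreated cells). The secondary aspartate copy chr6.trna144-AspGTC showed the opposite kind of spread, at 1625 and 870.1 RPM in untreated H1299/EV against 555 and 1290 in untreated H1299/mutant p53R273H, so that its lines overlapped where those of the AspGTC sum did not. The leading valine AAC copy, chr6.trna136-ValAAC, ran from 787 to 2534 in H1299/EV and from 785 to 1916 in H1299/mutant p53R273H over both treatments, and the lines overlapped throughout.

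Without the second etoposide-treated mutant library 4 entries and 3 anticodon sums were called, and without the second etoposide-treated H1299/EV library 6 entries. With equal tRNA totals, where 113 of the 128 features called were higher (28.4% of all features tested were called), 4 entries were called and all were higher (chr11.trna17 and chr11.trna16 of ValTAC, chr19.trna2-GlyTCC and chr6.trna115-ValAAC), and ValTAC was the one anticodon sum called (2.005, edgeR adjusted p = 0.00292). GlyGCC (-0.86) and GlyCCC (-0.83) stayed below 0 without passing. The tRNA share of counted reads, 8.61% and 8.78% in etoposide-treated H1299/EV against 4.34% and 4.53% in etoposide-treated H1299/mutant p53R273H, moved with the lower sums, and its part in them was not tested.

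Etoposide was then compared with no treatment within each line, using the same untreated libraries as the comparison of untreated lines. On the deposited scale no anticodon sum changed in either line (limma, adjusted p under 0.05; 0 of 10 at an unadjusted p under 0.05 in both), while 0.290% of 345 rows in H1299/EV and 0% of 389 rows in H1299/mutant p53R273H were called. edgeR and DESeq2 also called 0 sums in each line, with 1 sum at an unadjusted p under 0.05 in H1299/EV by edgeR. AspGTC had normalized counts of 11034 and 4853 in untreated and 9113 and 18883 in treated H1299/EV cells (0.84 ± 0.60, limma adjusted p = 0.941). In H1299/mutant p53R273H it had 3644 and 5737 untreated and 9761 and 5146 treated (0.63 ± 0.44, limma adjusted p = 0.672). The treated and untreated libraries overlapped in both lines.

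GluTTC was the sum with the smallest p in H1299/EV, with normalized counts of 343 and 279 untreated and 486 and 537 treated, which did not overlap (0.72 ± 0.37, limma adjusted p = 0.592). In H1299/mutant p53R273H, ValCAC had 114 and 144 untreated and 217 and 172 treated, also without overlap (0.59 ± 0.33, limma adjusted p = 0.556), and GluCTC had 492 and 603 untreated and 373 and 437 treated (-0.43 ± 0.33, limma adjusted p = 0.719). GlyCCC and GlyGCC, the sums that separated the lines, had log2 fold changes between -0.16 and 0.15 with etoposide in both lines, each smaller than its standard error.

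Among single entries in H1299/EV, 1 of 36 tested rose and none fell, beside 0.730% of all 411 features called. It was chr13.trna5-GluTTC, with normalized counts of 20.0 and 7.57 untreated and 21.9 and 118 treated (1.96 ± 0.51, limma adjusted p = 0.0236). The first treated library was close to the first untreated one, and the call rested on the second. It was lost without any 1 library other than the first untreated one, the log2 fold change being 2.61 without the first untreated library, 1.32 without the second and 3.15 without the first treated one. The log2 fold change without the second treated library was 0.77 (limma adjusted p = 0.874).

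In H1299/mutant p53R273H, 0 of 38 entries passed (limma, with 3 at an unadjusted p under 0.05; edgeR and DESeq2 also 0), beside 0% of all 448 features called. The smallest p-values belonged to valine entries. chr11.trna16-ValTAC had normalized counts of 59.8 and 82.7 untreated and 157 and 108 treated (0.88 ± 0.35). chr19.trna13-ValCAC had 55.8 and 76.8 against 133 and 97.3 (0.79 ± 0.34), and chr1.trna84-ValCAC had 10.6 and 11.8 against 18.1 and 24.5 (0.86 ± 0.38). None of the 3 overlapped between treated and untreated libraries, and each had a limma adjusted p of 0.568.

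The tRNA share of counted reads was 6.92% and 3.75% in untreated and 8.61% and 8.78% in treated H1299/EV cells, and 1.72% and 2.67% against 4.34% and 4.53% in H1299/mutant p53R273H, higher in both treated libraries of each line. With libraries set to equal total reads, a scale added after the data had been seen that moved the median of all features to 0.36 and 0.67, AspGTC was called higher with etoposide in H1299/EV (1.22 ± 0.29, limma adjusted p = 0.00959) and in H1299/mutant p53R273H (1.30 ± 0.25, limma adjusted p = 8.95e-05), as was chr12.trna10-AspGTC in each. AspGTC was the one sum that passed on this scale, which tests against 0 and not against the shifted median. Of all features tested, 2 of 411 in H1299/EV and 4 of 448 in H1299/mutant p53R273H were called on it. With equal tRNA totals no sum passed in either line, and the log2 fold change of AspGTC was 0.45 and 0.26.

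**Figure D5:**
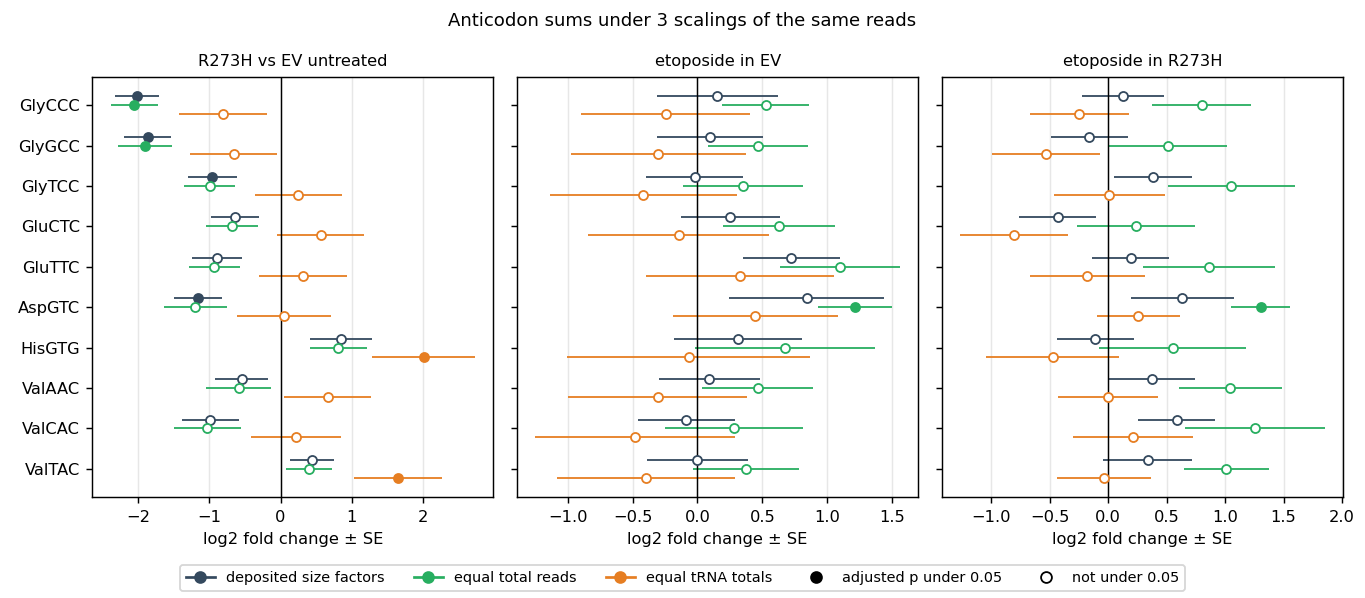
Log2 fold change with its standard error of the 10 anticodon sums in 3 comparisons, computed from the same reads with the deposited size factors, with equal total reads and with equal tRNA totals; filled points have an adjusted p under 0.05 (limma). Between the untreated lines, GlyCCC and GlyGCC stay below 0 and ValTAC and HisGTG above 0 on all 3 scales, while the called sums AspGTC and GlyTCC cross 0 with equal tRNA totals; with etoposide, AspGTC is filled only with equal total reads.

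Whether etoposide acted differently in the lines was tested as an interaction over the 8 libraries. No sum and no entry passed (edgeR, adjusted p under 0.05): 0% of 383 rows and 0% of 451 features were called, with 0 of 10 sums and 5 of 38 entries at an unadjusted p under 0.05, and DESeq2 called 0 of either. The sums furthest from 0 were ValCAC (0.82) and GluCTC (-0.63), each with an edgeR adjusted p of 1.00. Leaving out the first etoposide-treated H1299/EV library gave 1 called entry.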

How the data were processed

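Small RNA fractions of 8 libraries, 2 in each of 4 groups, were sequenced on an Ion PGM. Per the paper's methods, the authors trimmed reads, kept those of 17 to 35 bases with a Phred quality of at least 20, aligned them (SHRiMP, Novoalign, human build hg19) and counted miRNA, tRNA, rRNA and adapter reads with an in-house script. How reads matching several tRNA copies were counted was not given in the sources used here. The 3 deposited tables hold a normalized signal, that is, counts divided by a DESeq size factor by the authors, each table scaled separately. Columns holding the authors' own comparisons (fold changes and p-values) were not used. Whole reads were recovered from the deposited signal for 100% of values.

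Log2 of the normalized count plus 1 was tested with limma 3.58.1 (R 4.3.3, trend) over rows with a mean of at least 3, adapters left out. Contrasts under etoposide and the interaction used edgeR 4.0.16 (quasi-likelihood, TMM) on recovered reads with a mean of at least 3. DESeq2 1.42.0 was an alternative. Scripts ran in Python 3.11.15 and were tested on simulated data. Named items were all 10 anticodon sums, the 2 entries with most reads of each amino acid, up to 10 called entries per comparison by p, and, where an etoposide comparison had no call, the 3 entries with the smallest p. Other named entries (copies of one anticodon set side by side, entries called under another scale, and opposite shifts) were chosen after their values were seen. The members and lists were chosen with earlier results of these data known. Amino acid sums and equal total reads were added after seeing the data. The tRNA copies were located by a scan of GRCh37 requiring 15 of 17 stem pairs, which found 96 loci, against 95 RefSeq genes of these anticodons on GRCh38, with 1 chromosome left out. Nothing in the labels says that replicates came from separate cultures, though the study calls them biological, so p-values measure the spread between these libraries. Wilson 95% intervals cover counting error only. Sequences of some of these tRNAs are not reported here.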

Additional observations from a re-analysis of the deposited data

Results flagged for a closer look

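In 7 cases both etoposide libraries lay above both untreated ones in one line and below them in the other. The cases were picked for that separation, and the share of all features with such opposite shifts was not counted. Their number is therefore not a result about these tRNAs. The difference in log2 fold change (H1299/mutant p53R273H minus H1299/EV) was tested as an interaction and passed in none of the cases (edgeR, adjusted p from 0.984 to 1.00). Glutamate summed over its entries had a difference of -0.63, with normalized counts of 1074 and 789 untreated and 1214 and 1265 treated in H1299/EV, and of 713 and 848 untreated and 679 and 667 treated in H1299/mutant p53R273H. The difference was -0.97 for chr1.trna88-GluTTC, -0.75 for chr16.trna18-GlyGCC and -0.52 for chr1.trna104-HisGTG. It was -2.42 for chr6.trna40-ValTAC and -2.26 for chr1.trna92-ValCAC, both with few reads. The one positive difference was 1.21, for chr11.trna16-ValTAC. Groups of 2 libraries were too small for a test of single outlying libraries.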

How the results depend on the processing

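Between the untreated lines the count of entries called, 7 with limma and also with edgeR and DESeq2, was 4 with equal total reads, 2 without the trend, 3 with a replicate block and 0 to 0 when 1 library was left out. Of the 4 anticodon sums, 2 were called with equal upper quartiles, equal total reads or no trend and 0 with a replicate block, while equal tRNA totals gave 2 other sums, HisGTG and ValTAC, both higher, and 0 to 6 were called when 1 library was left out. Of the 2 amino acid sums, 1 was called with equal upper quartiles, equal total reads or no trend and 0 with a replicate block, while equal tRNA totals gave 1 other, histidine, higher, and 0 to 2 were called when 1 library was left out. For etoposide in H1299/EV the single entry was lost (0) with equal tRNA totals, no trend, DESeq2 or a replicate block, with a range of 0 to 1 when 1 library was left out, and 1 anticodon sum was called with equal total reads. On that last scale the single entry was lost as well, and chr12.trna10-AspGTC was called in its place. For etoposide in H1299/mutant p53R273H, equal total reads gave 1 entry, 1 anticodon sum and 1 amino acid sum. Under etoposide 10 entries were called, against 4 with equal tRNA totals (2 of them shared), 5 with equal total reads, 6 with a replicate block and 4 to 12 with 1 library left out. Of the 5 anticodon sums there, 3 were called with equal total reads, and 3 to 5 were called with 1 library left out. Equal tRNA totals gave 1 other anticodon sum, ValTAC, and 1 other amino acid sum, valine, both higher. For the interaction the range was 0 to 1 entries.

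With equal tRNA totals the log2 fold change between the untreated lines turned positive for AspGTC and aspartate (0.0485), GlyTCC (0.25), GluTTC (0.31), ValCAC (0.21), GluCTC (0.56) and ValAAC (0.66), and under etoposide for GlyTCC (0.76), ValCAC (0.89) and ValAAC (0.94), since this scale moves every feature up. With 1 library left out, ValAAC ran from -1.24 to 0.15 in untreated cells and from -0.60 to 0.19 under etoposide, and chr13.trna5-GluTTC from -2.11 to 0.29 under etoposide. With equal tRNA totals, 90% of calls between the untreated lines and 88.3% under etoposide were higher, against 38.6% and 40.7% on the main scale. Of the other single values, 290 kept their direction and side of the threshold, 81 lost their call and 6 gained one. Replicate numbers did not pair the libraries (correlations of deviations 0.015, -0.028 and -0.019), so the block is given only here. The cause of the lost calls was not tested.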
